A study of Mus musculus with 9 samples.

Results

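The genes described here are 43 genes of the endoplasmic reticulum (ER) and of the early secretory pathway, named by symbol and found in a count table of 24186 mouse genes. Each symbol matched 1 Ensembl identifier. They comprise 11 chaperones and co-chaperones, 7 folding enzymes, 8 sensors and transcription factors of the unfolded protein response, 6 genes of ER-associated degradation, 5 genes of protein translocation and 6 genes of coats and retrieval between ER and Golgi. Of the 43, 42 passed the filter on low counts, and Derl3 did not.

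Poly(A) RNA was sequenced from skeletal progenitors, stromal cells flushed from the marrow of the long leg bones of adult C57Bl/6 mice. All groups carried the irtTA-GBD*-TAg transgene, from which dexamethasone and doxycycline (Dex/Dox) switch on large T antigen, and all came from conditionally immortalised, cloned cells that had been without Dex/Dox for 3 days. The 3 groups were adipogenic progenitors kept for 3 days with interferon-γ (IFNγ) at 10 ng/ml, progenitors with osteogenic potential, and adipogenic progenitors without IFNγ, with 3 libraries each. Libraries carry the numbers 4, 5 and 6 from their labels, which call them biological replicates. The labels do not say whether a number stands for a clone, a culture or an animal, and p-values therefore speak only of the variation among these libraries.

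Proteins bound for the cell surface, the matrix or the lysosome enter the ER through the Sec61 channel, are folded there by chaperones such as BiP (Hspa5) and GRP94 (Hsp90b1), receive disulphide bonds from protein disulphide isomerases and leave in vesicles coated with COPII. When unfolded protein builds up, the sensors IRE1 (Ern1), PERK (Eif2ak3) and ATF6 raise the transcription of chaperones, of degradation genes and of Ddit3, the gene of the transcription factor CHOP. Bone-forming cells secrete large amounts of type I collagen, whose folding needs its own enzymes and whose long molecules need COPII carriers.

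The transcription factors of this response bind short promoter motifs, which are shown for chaperone, degradation and coat genes among the members. Promoter windows of 250 bases before to 50 bases after the start were taken from RefSeq (GRCm38.p6), which held an entry for 34 of the 43 members. The Hspa5 promoter is given whole before its start (chr2:34771840-34772089, + strand), with a UPRE core and an ERSE in capitals. The ERSE is bound by ATF6 and XBP1 and consists of CCAAT and CCACG with 9 bases of any kind between them. The UPRE core is TGACGTG, and both strands were searched.
Hspa5: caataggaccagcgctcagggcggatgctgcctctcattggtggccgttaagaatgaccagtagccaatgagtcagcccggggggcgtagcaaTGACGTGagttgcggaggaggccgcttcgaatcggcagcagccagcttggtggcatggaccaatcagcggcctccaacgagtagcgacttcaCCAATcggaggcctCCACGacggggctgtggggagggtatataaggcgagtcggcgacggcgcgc
The ERSE windows of 3 other members follow, each with the end boxes in capitals: Hsp90b1 (chr10:86705626-86705668, − strand), Canx (chr11:50325788-50325830, − strand) and Dnajc3 (chr14:118937815-118937857, + strand).
Hsp90b1: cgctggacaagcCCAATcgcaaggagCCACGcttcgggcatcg
Canx: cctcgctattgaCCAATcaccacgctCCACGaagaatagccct
Dnajc3: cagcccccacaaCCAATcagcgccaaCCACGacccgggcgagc
Herpud1 (chr8:94386365-94386399, + strand) and Dnajb11 (chr16:22857843-22857871, + strand) held the related ERSE-II, ATTGG and CCACG with 1 base between them, with the boxes in capitals.
Herpud1: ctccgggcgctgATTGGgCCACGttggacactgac
Dnajb11: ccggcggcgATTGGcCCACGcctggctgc
Of the coat and retrieval genes, Sec31a had a promoter entry without a UPRE core, and Kdelr2 and Tmed2 had no entry. The core, also held by Hspa5, was found in Sec23a (chr12:59011994-59012022, − strand), Sec24d (chr3:123267458-123267488, + strand) and, on the opposite strand, Kdelr3 (chr15:79516367-79516397, + strand).
Sec23a: ctcctccccttTGACGTGgcagaggcggc
Sec24d: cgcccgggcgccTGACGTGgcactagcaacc
Kdelr3: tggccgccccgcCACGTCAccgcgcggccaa

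Over the 34 members with an entry, 9 held an ERSE, against 0.137% of the 27025 genes in the promoter table, and these were Hspa5, Hsp90b1, Calr, Canx, Dnajc3, Creld2, Pdia6, Syvn1 and Derl3. ERSE-II was found in 2 of 34, against 0.0444% of all genes. The UPRE core was found in 4 of 34, against 2.22% of all genes, and its members were Hspa5, Sec23a, Sec24d and Kdelr3. The motif of ATF4 and CHOP heterodimers with C/EBP proteins (CARE, TGATGNAA) was found in 2 of 34, Trib3 and Herpud1. That share, 5.88%, was near the 4.51% of all genes. The short box CCACG, which is part of ERSE and ERSE-II and overlaps a UPRE core followed by G, was found in 27 of 34, against 35.5% of all genes. A match describes the letters in the window and does not show that a factor binds there.

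Libraries held 27440089 to 39251602 counts. Values are CPM, counts scaled to a common library size with the trimmed mean of M values. The floor for a gene without counts, set at 3 counts in a library, lay between 0.0748 and 0.113 CPM and covers counting error only. The stromal genes Col1a1 and Col1a2 were among the highest, yet Thy1 was at or near 0 in every library, as were the late fat genes Adipoq, Plin1 and Cd36. The osteoblast genes Sp7 and Alpl stood at 50.6 to 129.6 and 260.2 to 395 CPM in osteogenic libraries and at no more than 0.313 and 17.9 CPM in any adipogenic library. The 8 bone markers summed to 1934, 2245 and 637 CPM in osteogenic libraries 4, 5 and 6. In untreated libraries 4, 5 and 6 they summed to 278, 1093 and 1427 CPM, so osteogenic library 6 lay below untreated 5 and 6. Against untreated libraries 4 of the 8 were higher without overlap, beside 15% of all genes. Without both adipogenic libraries numbered 4, 2 of the 8 had a log2 fold change below 0. Of the 6 macrophage and blood markers Ptprc and Itgam were at or near 0 throughout, and the list summed to 12.5 to 20.1 CPM in IFNγ-treated, 9.37 to 12.1 CPM in osteogenic and 12.6 to 30.5 CPM in untreated libraries, most of it Cd68 and Cd14. Of the 5 endothelial markers Pecam1, Cdh5, Emcn and Tek reached at most 0.536 CPM. Kdr, a vascular growth factor receptor gene, had 53.9, 21.5 and 42.6 CPM with IFNγ, 2.39, 1.35 and 1.44 CPM in osteogenic libraries and 17.4, 8.648 and 9.85 CPM without IFNγ, and its part in the results was not tested. In bulk RNA, fewer cells that express a gene and less RNA per cell cannot be told apart.

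Both adipogenic libraries numbered 4 stood apart from the other 7 in these genes, with and without IFNγ. The 43 members took 2.83, 1.12 and 1.25% of all counts in IFNγ-treated libraries 4, 5 and 6, and 1.58, 1.44 and 1.43% in osteogenic libraries 4, 5 and 6. In untreated adipogenic libraries 4, 5 and 6 they took 3.46, 1.25 and 1.32%. The osteogenic library numbered 4 was thus close to the other osteogenic libraries, and the split ran only through the adipogenic ones. It was seen in the data and is given as a description without a test, and comparisons that rest on those libraries are given with and without them.

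**Figure D1:**
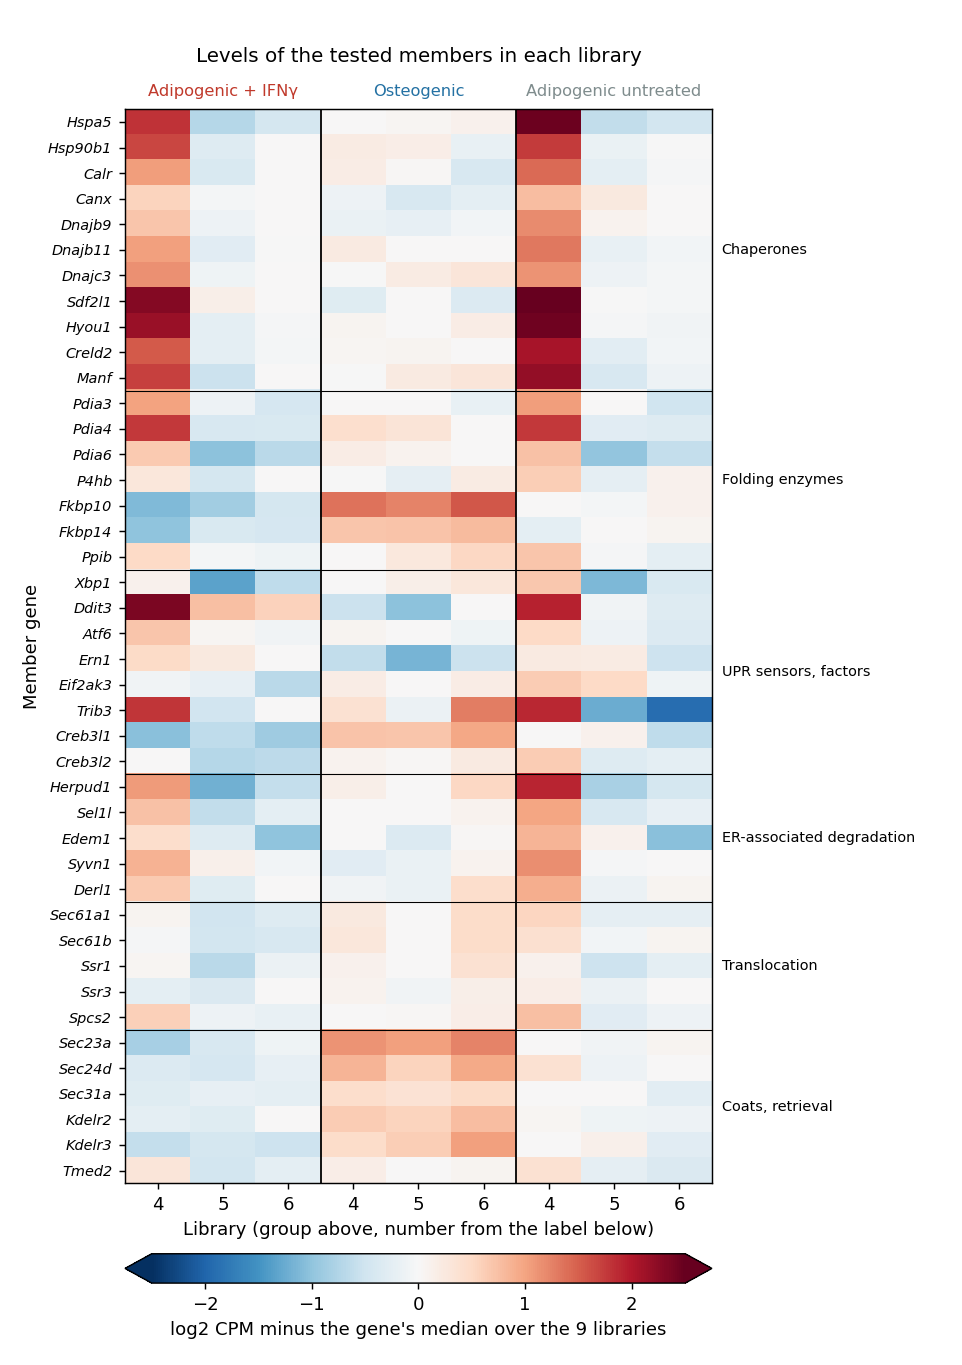
Level of each of the 42 tested members (rows, by role) in each of the 9 libraries (columns, by group and label number), as log2 CPM minus the gene's median over all libraries. Red cells fill the chaperone rows of both adipogenic libraries numbered 4. Fkbp10, Fkbp14, Creb3l1 and the coat and retrieval rows other than Tmed2 are red in the 3 osteogenic libraries.

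Per kilobase of exon, the most abundant members were folding genes of the ER lumen. Calr, a lectin chaperone, led in IFNγ-treated libraries at 665 ± 360 and in osteogenic ones at 509 ± 101 CPM per kilobase (mean ± SD, n = 3), and Hspa5 led in untreated libraries at 832 ± 1005. The place of Hspa5 rested on library 4: over untreated libraries 5 and 6 alone it averaged 252 CPM per kilobase, against 478 for P4hb and 476 for Calr. In osteogenic libraries P4hb, a disulphide isomerase that is also a subunit of collagen prolyl 4-hydroxylase, followed at 496 ± 71.5 and the cyclophilin Ppib at 429 ± 75.2, neighbours that did not differ beyond their spread. Levels of the sensors were far lower, with Ern1 at 4.85 ± 1.06 and Eif2ak3 at 8.01 ± 0.58 CPM per kilobase in osteogenic libraries. Derl3, a degradation gene, was at 0.591 CPM in IFNγ-treated library 4 and at 0.366 CPM in untreated library 4, and at no more than 0.113 CPM in each of the other 7.

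All 11 chaperones were higher in both adipogenic libraries numbered 4 than in each of the 4 adipogenic libraries numbered 5 or 6, against 17% of all 15098 genes tested. For 9 of the 11 the lower of the number 4 values was over 2 times the highest of the others, against 1.46% of all genes. Hspa5 (ENSMUSG00000026864), the main ER chaperone of the HSP70 family, had 4454, 783 and 938 CPM in IFNγ-treated libraries 4, 5 and 6, 1277, 1315 and 1379.6 CPM in osteogenic libraries, and 7001, 837 and 935 CPM in untreated adipogenic libraries. Library 4 was 5.18 times the mean of libraries 5 and 6 with IFNγ and 7.90 times without. The 3 osteogenic values, with an SD of 51.8 CPM, lay between the number 4 libraries and the other adipogenic ones.

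Hyou1 (ENSMUSG00000032115), a large HSP70-related nucleotide exchange factor of BiP, had 910.3, 172 and 198 CPM with IFNγ, 214, 203 and 232 CPM in osteogenic libraries and 1091, 199 and 191 CPM without IFNγ. Sdf2l1 (ENSMUSG00000022769), a partner of ER DnaJ proteins, had 175, 39.3 and 35.6 CPM with IFNγ, 28.7, 35.6 and 28.1 CPM in osteogenic libraries and 213, 35.5 and 34.3 CPM without. Manf, a small secreted protein held in the ER, had 389, 81.9 and 118 CPM with IFNγ, 117, 138 and 146 CPM in osteogenic libraries and 543, 89.7 and 108 CPM without. In each of these genes number 4 was the highest adipogenic value with and without IFNγ, at over 3 times either of the others of its group.

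Other chaperones had smaller steps in number 4. Canx, the membrane lectin chaperone, had 1607, 1049 and 1087 CPM with IFNγ, 995, 824 and 923 CPM in osteogenic libraries and 1868, 1280.4 and 1096 CPM without IFNγ. Hsp90b1 (ENSMUSG00000020048), the HSP90 of the ER, had 4347, 1102 and 1372 CPM with IFNγ, 1576, 1529 and 1213 CPM in osteogenic libraries and 4590.4, 1217 and 1362 CPM without. Its ratio of number 4 to the mean of 5 and 6 was 3.51 with IFNγ and 3.56 without, while Creld2, a stress-inducible ER protein, reached 3.17 and 4.63. Calr, the soluble counterpart of Canx, had 3094, 1149 and 1504 CPM with IFNγ, 1715, 1537 and 1147 CPM in osteogenic libraries and 4038, 1271 and 1469 CPM without IFNγ.

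The DnaJ co-chaperones of BiP were also highest in number 4. Dnajb11 had 272, 109 and 133 CPM with IFNγ, 155, 133 and 134 CPM in osteogenic libraries and 331, 117 and 127 CPM without IFNγ. Dnajc3, which also inhibits PERK, had 271, 114 and 122 CPM with IFNγ, 122, 141 and 151 CPM in osteogenic libraries and 267, 112 and 118 CPM without. Dnajb9, which represses IRE1, had 37.5, 21.1 and 23.3 CPM with IFNγ, 20.5, 20.0 and 22.1 CPM in osteogenic libraries and 52.4, 24.4 and 23.1 CPM without.

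**Figure D2:**
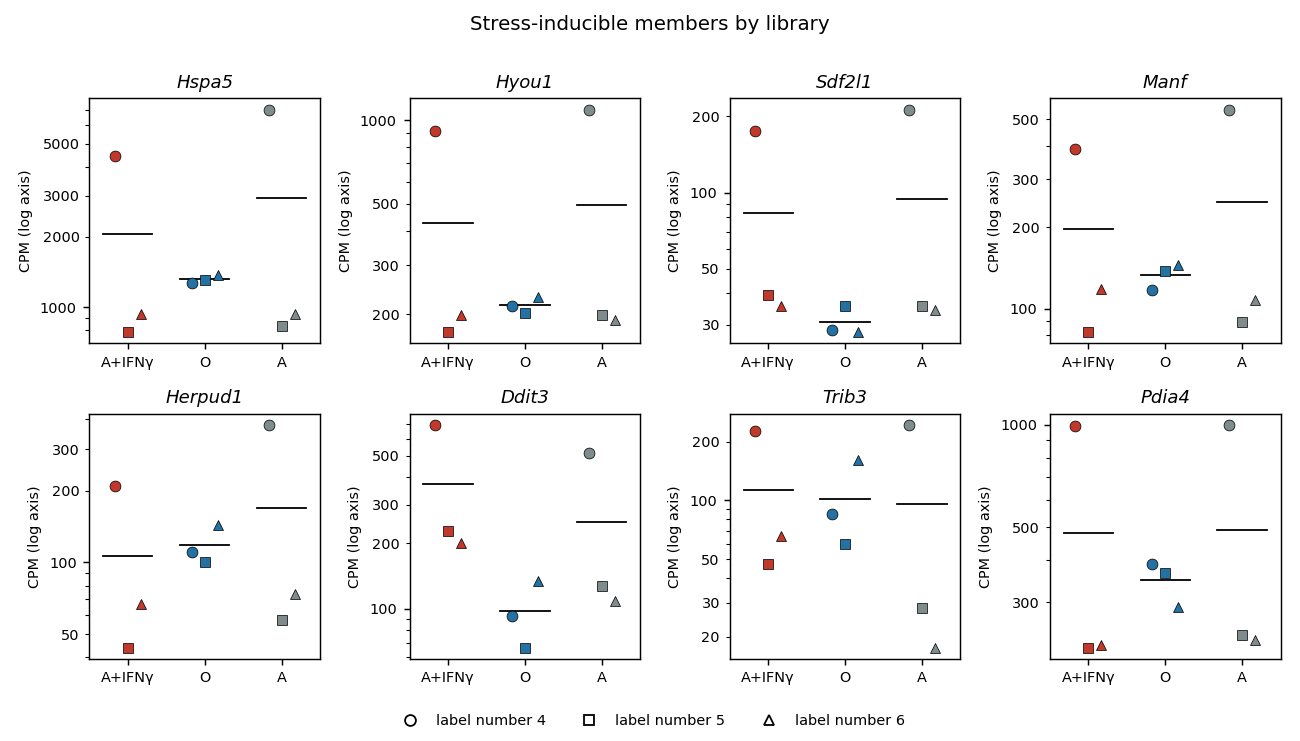
CPM (log axis) of 8 stress-inducible members in each library of IFNγ-treated adipogenic (A+IFNγ), osteogenic (O) and untreated adipogenic (A) progenitors; the shape gives the label number and the bar the group mean. The circles of number 4 lie above all other adipogenic points in every panel, at 4454 and 7001 CPM for Hspa5.

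Among the folding enzymes 5 of 7 were above in number 4. Pdia4, a disulphide isomerase of the ER lumen, had 992, 221 and 225 CPM with IFNγ, 389, 367 and 292 CPM in osteogenic libraries and 999, 241 and 233 CPM without IFNγ. Pdia3, which folds glycoproteins together with Calr and Canx, had 2414, 1089.6 and 899 CPM with IFNγ, 1200.2, 1195 and 1050.1 CPM in osteogenic libraries and 2456, 1209 and 849 CPM without. For P4hb and Ppib the step was smaller, with 1713 and 484 CPM in IFNγ-treated library 4 and 2160.4 and 553 CPM in untreated library 4, against at most 1522 and 335 CPM in the other 4 adipogenic libraries. Pdia6 was the other member above in number 4. Fkbp10 and Fkbp14, prolyl isomerases that act on collagen, were not above, and had their lowest IFNγ-treated value in number 4.

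Of the sensors and factors 5 of 8 were above in number 4, led by the targets of the PERK branch. Trib3, a pseudokinase gene induced by ATF4 and CHOP, had 226, 47.5 and 65.8 CPM with IFNγ, 85.4, 59.7 and 161 CPM in osteogenic libraries and 243, 28.0 and 17.6 CPM without IFNγ. Ddit3 (ENSMUSG00000025408) had 693, 228 and 200.5 CPM with IFNγ, 93.2, 66.5 and 135 CPM in osteogenic libraries and 515, 128 and 109 CPM without. Its ratio of number 4 to the mean of 5 and 6 was 3.24 with IFNγ and 4.36 without. Atf6, the gene of the cleaved membrane-bound factor, had 182, 117 and 106 CPM with IFNγ, 119, 113 and 105 CPM in osteogenic libraries and 159, 103 and 89.5 CPM without. Xbp1, whose mRNA is spliced by IRE1, showed ratios of 2.09 and 2.60, as total counts that do not separate the spliced form. The sensor genes Ern1 and Eif2ak3 and the collagen-regulating factor Creb3l1 were not among the 5.

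All 5 tested degradation genes were above in number 4. Herpud1, a membrane protein of the degradation complex, had 209.5, 43.8 and 67.0 CPM with IFNγ, 111, 101 and 144 CPM in osteogenic libraries and 379, 57.3 and 74 CPM without IFNγ. Sel1l and Syvn1, the core of the same ubiquitin ligase, had 295 and 203 CPM in IFNγ-treated library 4 and 352 and 249 CPM in untreated library 4, against no more than 154 and 122 CPM in the other 4 adipogenic libraries. Derl1, a channel component for degraded proteins, had 234.6 and 282 CPM in the treated and untreated libraries 4, against at most 157 CPM in the other 4. Edem1, a lectin that delivers glycoproteins for degradation, had 229.5, 135 and 84.2 CPM with IFNγ, 169, 133 and 173 CPM in osteogenic libraries and 304, 182 and 81.6 CPM without IFNγ, so that number 6 was lowest in both adipogenic groups.

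For translocation 3 of 5 were above, namely the channel gene Sec61a1, Ssr1 of the translocon-associated complex and Spcs2 of the signal peptidase. Sec61a1 had 374, 256 and 284 CPM with IFNγ, 419, 356 and 491 CPM in osteogenic libraries and 517, 303 and 305 CPM without IFNγ. Ssr1 had 286, 175 and 249.8 CPM with IFNγ, 299, 278 and 359.8 CPM in osteogenic libraries and 299, 194 and 233 CPM without, and Spcs2 had 107 and 118 CPM in the treated and untreated libraries 4 and 57.4 to 78.2 CPM in all others. Ssr3, the partner of Ssr1, had 411, 381 and 486 CPM with IFNγ, 517, 455 and 536 CPM in osteogenic libraries and 548, 439 and 489 CPM without, and overlapped between numbers. Only Tmed2, a cargo receptor of COPI and COPII vesicles, was above among the 6 coat and retrieval genes, with 55.5 and 58.7 CPM in number 4 and 32.8 to 38.2 CPM in the other 4 adipogenic libraries.

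Summed over all roles, 30 of 42 members were above in number 4 and 14 of 42 by over 2 times, against the 17% and 1.46% of all genes. None was below in number 4, against 14.4% of all genes. No member was above in both libraries numbered 5, against 13.8% of all genes, or in both numbered 6, against 11.7%. The 30 members above in number 4 could not be below there or above in another number. These absences thus largely follow from the first count and are no separate results. Number 5 held 14 of 42 below the other 4, against 13.4% of all genes, and number 6 held 4, against 11%. Of the 30 members, 24 had a promoter entry and 10 of these held an ERSE or ERSE-II. The other 12 tested members had 9 entries, of which 0 held either motif and 3 held the UPRE core. The CCACG box was in 19 of the 24 and in 7 of the 9. No test was made of these counts. Among genes outside the 43 that were tested, 2 of 7 with an ERSE and 4 of 4 with an ERSE-II were above in number 4.

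Related genes fixed by role were above in number 4 for 16 of 28 other folding genes, 10 of 22 other stress targets and factors, 12 of 32 translocation and glycosylation genes, 9 of 48 coat and Golgi genes and 4 of 22 degradation genes, beside 17% of all genes. The last 2 shares, 18.8% and 18.2%, were near that of all genes. Of the 22 degradation genes 6 were below in number 4, beside 14.4% of all genes. Collagen-specific folding genes were above in 2 of 13, also near the share of all genes, and secreted cargo genes in 0 of 18. Within each group, though, the collagen gene Col3a1 in number 4 was 3.22 times the mean of 5 and 6 with IFNγ and 6.01 times without, and the matrix gene Postn 3.31 and 5.23 times. For both genes the treated number 4 value lay below untreated number 5, so that they do not count as above. Atf4, the transcription factor made when PERK phosphorylates its target, had 531, 277 and 377 CPM in IFNγ-treated libraries 4, 5 and 6 and 532, 292 and 351 CPM in untreated ones. Ppp1r15a, which reverses that phosphorylation, had 72.1, 54.0 and 47.8 CPM with IFNγ and 191, 79.7 and 73.2 CPM without, so its treated number 4 value overlapped the others.

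Some cell type genes also differed in number 4, and their part in the result was not tested. Pparg, a fat cell transcription factor, had 8.92 and 20.0 CPM in the treated and untreated libraries 4 and 26.4 to 60.5 CPM in the other 4 adipogenic libraries. Fabp4, a fatty acid binding protein gene, likewise had 22.2 and 21.5 CPM, against 24.1 to 234 CPM. Of the 4 tested fat genes, 2 were below in number 4, beside 14.4% of all genes. As many, 2, were below in number 5, beside 13.4%, and 2 were above in number 6, beside 11.7%. Low values of fat genes were thus not particular to number 4. The 8 bone genes summed to 308, 476 and 398 CPM in IFNγ-treated libraries 4, 5 and 6. In untreated ones they summed to 278, 1093 and 1427 CPM. Of the plasma and B cell markers, genes of cells with a large ER, Cd79a, Igj and 2010001M09Rik reached at most 0.175 CPM in any library and Prdm1 at most 3.38 CPM. Sdc1, a surface proteoglycan gene of the same list that stromal cells also express, had 126 and 220.2 CPM in the treated and untreated libraries 4, against 191 to 456 CPM in the other 4 adipogenic libraries.

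Osteogenic progenitors were then set against untreated adipogenic ones, to ask whether cells with osteogenic potential carry more of the secretory machinery. In osteogenic libraries 6 of 42 members rose and 0 fell, beside 1.98% of all genes higher and 3.19% lower. The 6 were the collagen prolyl isomerases Fkbp10 and Fkbp14, the transcription factor Creb3l1, the coat gene Sec23a and the retrieval receptors Kdelr2 and Kdelr3. The median log2 fold change of the 42 was −0.21 and that of all genes −0.02.

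Fkbp10 (ENSMUSG00000001555) had 765, 710.0 and 878 CPM in osteogenic libraries and 299, 291 and 321 CPM in untreated adipogenic ones. The groups did not overlap, and the log2 fold change was 1.37 ± 0.19 (SE, edgeR quasi-likelihood adjusted p = 0.00933). Fkbp14 (ENSMUSG00000038074) had 65.6, 66.5 and 70.6 CPM in osteogenic libraries and 34.5, 40.7 and 42.9 CPM in untreated ones, with a log2 fold change of 0.78 ± 0.18 (adjusted p = 0.0461, edgeR). Creb3l1 (ENSMUSG00000027230), also called OASIS and known to drive collagen genes in osteoblasts, had 276, 271 and 328 CPM against 169, 181 and 109 CPM, and a log2 fold change of 0.93 ± 0.21 (adjusted p = 0.0433, edgeR).

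Sec23a (ENSMUSG00000020986), an inner COPII coat subunit whose loss in people impairs skull bone formation, had 203, 189.5 and 221 CPM in osteogenic libraries and 93.5, 88.1 and 98.5 CPM in untreated adipogenic ones. Its log2 fold change was 1.13 ± 0.18 (adjusted p = 0.0141, edgeR). Kdelr2 (ENSMUSG00000079111), a receptor that returns ER proteins from the Golgi, had 348, 332 and 385 CPM against 234, 208 and 207 CPM, with a log2 fold change of 0.71 ± 0.13 (adjusted p = 0.0240, edgeR). Kdelr3 (ENSMUSG00000010830), its paralogue, had 111, 123 and 163 CPM against 80.4, 87.5 and 66.1 CPM, with a log2 fold change of 0.76 ± 0.17 (adjusted p = 0.0422, edgeR). These 6 genes did not overlap between the groups. Over all 42 members, 8 were higher without overlap, beside 15% of all genes, and 3 lower, beside 15.9% of all genes.

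The cargo-binding coat subunit Sec24d had 331, 268 and 351 CPM in osteogenic libraries and 238, 168 and 183 CPM in untreated ones, and its log2 fold change of 0.69 ± 0.17 did not pass (adjusted p = 0.0555, edgeR). The outer coat gene Sec31a had 681, 652 and 706 CPM against 505, 505 and 421 CPM, and its log2 fold change of 0.51 ± 0.13 did not pass either (adjusted p = 0.0572, edgeR). Both were higher without overlap between the groups, as were 15% of all genes. The 6 coat and retrieval genes had a median log2 fold change of 0.70, the 11 chaperones one of −0.73, with 0 chaperones past the threshold. No degradation or translocation gene passed.

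Most of these calls were lost when single libraries were left out. So were most calls over all genes, where 299 higher became 54 to 132. When each of the 6 libraries was left out in turn, Fkbp10 passed every time, Sec23a failed without untreated library 6, osteogenic library 4 or osteogenic library 6 (adjusted p up to 0.0626), and Kdelr2 passed only without untreated library 4 (up to 0.0879). Fkbp14, Creb3l1 and Kdelr3 failed whichever library was left out (adjusted p up to 0.139, 0.135 and 0.130).

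Leaving out both adipogenic libraries numbered 4, chosen after the data were seen, turned the sign of the chaperones. High values of members in those libraries led to this choice, so the fold changes of such members without number 4 follow in part from it. The member median was then 0.31, the chaperone median 0.16 and the log2 fold change of Hspa5 0.58 (adjusted p = 0.0646), against −1.14 with all libraries. Without them 6 members rose and 0 fell, beside 2.13% of all genes higher and 3.56% lower, and the 6 were Fkbp10, Sec23a, Fkbp14, Kdelr2, Sec24d and Pdia6. Pdia6, a disulphide isomerase that works with BiP, had 747, 700.5 and 659 CPM in osteogenic libraries. Untreated libraries 5 and 6 had 334 and 434 CPM, and the log2 fold change was 0.87 (adjusted p = 0.0462, edgeR). Untreated library 4, left out here, held 2.85 times the mean of libraries 5 and 6. With all libraries Pdia6 did not pass (adjusted p = 0.880, edgeR). Without number 4, Creb3l1 and Kdelr3 no longer passed (adjusted p = 0.0671 and 0.0823, edgeR).

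**Figure D3:**
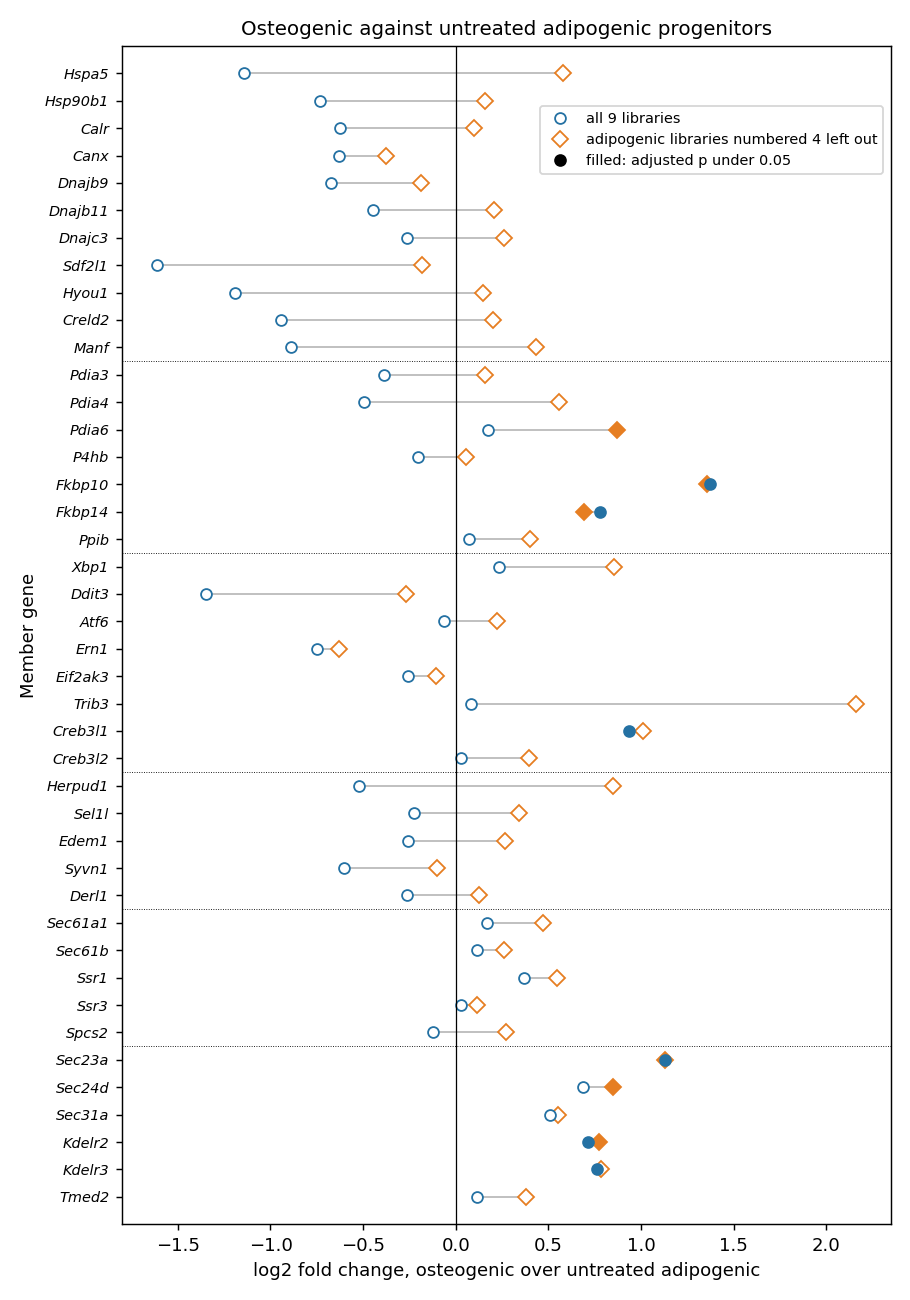
Log2 fold change of each tested member, osteogenic over untreated adipogenic, fitted on all 9 libraries (circles) and without both adipogenic libraries numbered 4 (diamonds); filled symbols passed an adjusted p of 0.05. Hspa5 lies at −1.14 with all libraries and at 0.58 without number 4, while Fkbp10 and Sec23a stay above 1.

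Other pathway genes were counted in the same comparison. Of 165 tested genes of the related lists other than cargo, 5 rose and 1 fell in osteogenic libraries, which is 3.03% higher and 0.606% lower, beside 1.98% and 3.19% of all genes. Without both adipogenic libraries numbered 4, 11 rose and 2 fell, beside 2.13% and 3.56% of all genes. Ost4, a small subunit of the oligosaccharyltransferase, had 115, 123 and 99.3 CPM in osteogenic libraries and 39.9, 52.8 and 59.3 CPM in untreated ones, with a log2 fold change of 1.15 ± 0.17 (adjusted p = 0.0125, edgeR). Sec16b, a scaffold of ER exit sites, had 19.3, 23.8 and 20.9 CPM against 10.4, 5.15 and 8.63 CPM, with a log2 fold change of 1.40 ± 0.26 (adjusted p = 0.0241, edgeR). Spcs3, a signal peptidase subunit, fell, with 172, 206 and 157 CPM against 551, 443 and 714 CPM and a log2 fold change of −1.67 ± 0.26 (adjusted p = 0.0135, edgeR).

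The secreted cargo was counted beside its machinery. The 20 listed cargo genes summed to 24737 ± 4257 CPM in IFNγ-treated libraries, 123609 ± 20215 in osteogenic ones and 49512 ± 3723 in untreated ones (mean ± SD, n = 3). Col1a2, the second chain of type I collagen, had 19434, 24443 and 28355 CPM in osteogenic libraries and 9234, 6412 and 5975 CPM in untreated ones, with a log2 fold change of 1.74 ± 0.25 (adjusted p = 0.0111, edgeR). Col1a1, the main chain, rose by 2.32 ± 0.48 (adjusted p = 0.0349, edgeR). Fn1, the fibronectin gene, and Sparc, a collagen-binding glycoprotein gene, had log2 fold changes of 0.58 ± 0.32 and 0.96 ± 0.39 and did not pass (adjusted p = 0.318 and 0.192, edgeR). In all, 3 of 18 tested cargo genes rose and 0 fell, beside 1.98% of all genes higher and 3.19% lower, and their median log2 fold change was 1.09. Without both adipogenic libraries numbered 4, 5 of 18 rose and 0 fell, beside 2.13% and 3.56% of all genes.

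IFNγ-treated adipogenic progenitors were also set against osteogenic ones, where cell type and treatment differ together and cannot be told apart. In the treated libraries 8 of 42 members fell, beside 7.52% of all genes lower, and 1 rose, beside 9.2% of all genes higher. The 8 held the 6 genes above together with Sec24d and Sec31a, and since both comparisons use the same osteogenic libraries this is no second line of evidence.

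Fkbp10 had 138, 164 and 221 CPM in IFNγ-treated libraries, against the 710.0 to 878 CPM of osteogenic ones, with a log2 fold change of −2.17 ± 0.19 (adjusted p = 0.00032, edgeR). Sec23a had 52.9, 70.6 and 86.8 CPM in treated libraries, with a log2 fold change of −1.54 ± 0.18 (adjusted p = 0.00121, edgeR). Creb3l1 had 81.8, 109 and 91.1 CPM in treated libraries, with a log2 fold change of −1.63 ± 0.21 (adjusted p = 0.00215, edgeR). None of the 3 overlapped between the groups. Over all 42 members, 11 were lower without overlap, beside 18.8% of all genes, and 3 higher, beside 19.7% of all genes.

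Fkbp14 had 20.3, 31.3 and 30.3 CPM in treated libraries and a log2 fold change of −1.31 ± 0.18, and Kdelr3 had 53.2, 59.2 and 56.4 CPM and −1.24 ± 0.17. The other coat and retrieval genes fell less. Sec24d had 144, 137 and 159 CPM in treated libraries and a log2 fold change of −1.11 ± 0.17, Kdelr2 190.4, 182 and 225 CPM and −0.83 ± 0.13, and Sec31a 409, 436 and 425 CPM and −0.68 ± 0.13. Adjusted p-values of these 5 ran from 0.00279 for Fkbp14 to 0.00965 for Sec31a (edgeR). All 8 calls held when any of the 6 libraries was left out.

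The gene that rose was Ern1 (ENSMUSG00000020715), the IRE1 sensor, with 92.2, 78.2 and 66.2 CPM in IFNγ-treated libraries and 43.4, 29.7 and 45.8 CPM in osteogenic ones. Its log2 fold change was 0.99 ± 0.25 (adjusted p = 0.0314, edgeR), and it passed without IFNγ-treated library 6 but failed without any of the other 5 (adjusted p up to 0.0970). Without both adipogenic libraries numbered 4 it failed as well (0.0847). Ddit3 then passed as the 1 member that rose, beside 8.83% of all genes higher, with a log2 fold change of 1.14 (adjusted p = 0.0466, edgeR), and 14 members fell, beside 6.16% of all genes lower. The 6 additional ones were Pdia6, Pdia4, Hspa5, Herpud1, Creb3l2 and Sec61b, with log2 fold changes of −0.92, −0.63, −0.61, −1.08, −0.78 and −0.67. All of these but Sec61b were above in number 4, the trait for which those libraries were left out. Their falls thus follow in part from that choice. With all libraries Hspa5 and Pdia4 had the opposite sign, 0.64 and 0.46.

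**Figure D4:**
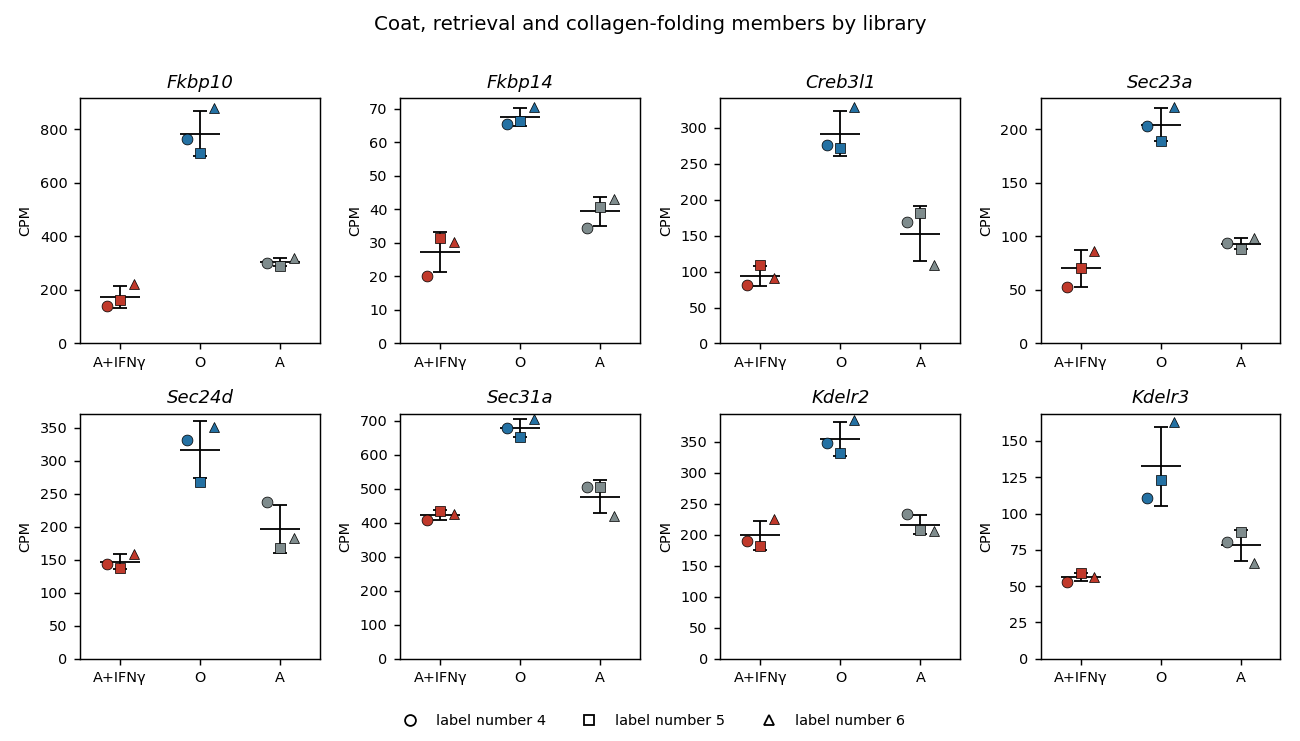
CPM of 8 members in each library of IFNγ-treated adipogenic (A+IFNγ), osteogenic (O) and untreated adipogenic (A) progenitors; the shape gives the label number, the long bar the group mean and the whiskers 1 SD (n = 3). The osteogenic points lie above all adipogenic points in every panel, from 710.0 to 878 CPM for Fkbp10.

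Of the 165 related genes other than cargo, 6 rose and 24 fell in IFNγ-treated libraries relative to osteogenic ones, which is 3.64% higher and 14.5% lower, beside 9.2% and 7.52% of all genes. Among the 24 were 11 of 48 coat and Golgi genes. Sec16b had 3.90, 3.58 and 4.40 CPM in treated libraries, against 19.3 to 23.8 CPM in osteogenic ones, with a log2 fold change of −2.43 ± 0.27 (adjusted p = 0.000927, edgeR). Ost4 had 45.1, 39 and 36.2 CPM in treated libraries, with a log2 fold change of −1.49 ± 0.17 (adjusted p = 0.00123, edgeR). Among cargo genes 11 of 18 fell and 0 rose, beside the same 7.52% and 9.2% of all genes, with log2 fold changes of −2.61 ± 0.26 for Col1a2 (adjusted p = 0.000519, edgeR) and −3.93 ± 0.51 for Col1a1 (0.00226).

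The last comparison asked what IFNγ did to these genes in adipogenic progenitors. With the 3 treated libraries set against the 3 untreated ones, 0 of 42 members passed, beside 2.01% of all genes higher and 0.245% lower. At an unadjusted p under 0.05 there were 7 of 42, beside 2159 of all 15098 genes tested. The limma-voom fit passed 0, and DESeq2 passed 2 that were lower, Fkbp10 and Creb3l1, beside 318 lower over all genes. Without both libraries numbered 4 the count was again 0, beside 1.09% of all genes higher and 0.117% lower. The median log2 fold change was −0.20 for the members and −0.02 for all genes, with 37 members below 0 and 5 above. Without both libraries numbered 4 the member median was −0.07, with 29 members below 0 and 13 above.

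Treated and untreated libraries of the same number deviated from their group means together, so the numbers pair them. With the number as a replicate block over the 6 adipogenic libraries, 1 member rose, beside 8.61% of all genes higher, and 7 fell, beside 8.02% of all genes lower. The 7 made up 16.7% of the members and came from 4 of the 6 roles, and 0 of 11 chaperones passed in either direction.

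The gene that rose was Ddit3, at 1.35, 1.79 and 1.85 times its untreated level in numbers 4, 5 and 6. Its log2 fold change with the block was 0.70 (adjusted p = 0.0245, edgeR), with a range of 0.0245 to 0.863 over the scaling, filter, tool and block settings that kept all 3 numbers. Trib3, another gene of the same branch, had ratios of 0.93, 1.70 and 3.73 and did not pass (adjusted p = 0.213, edgeR with the block). The ER chaperone Hspa5 had ratios of 0.64, 0.94 and 1.00 and did not pass (0.354).

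Eif2ak3, the PERK kinase upstream of Ddit3, fell, with 37.5, 34.3 and 25 CPM in IFNγ-treated libraries and 62.2, 56.6 and 37.1 CPM in untreated ones. Its ratios were 0.60, 0.61 and 0.67 within numbers 4, 5 and 6, and its log2 fold change with the block was −0.69 (adjusted p = 0.0100, edgeR, 0.0100 to 0.347 over the settings). Fkbp10 was at 0.46, 0.56 and 0.69 times its untreated level, with a log2 fold change of −0.84 (0.0181, range 0.00162 to 0.196). Creb3l1 was at 0.48, 0.60 and 0.84 times, with a log2 fold change of −0.69 (0.0472, range 0.0358 to 0.308).

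The other 4 that fell were Sec61b, a channel subunit, with 51.5, 38.4 and 40.1 CPM treated and 69.4, 49.98 and 54.9 CPM untreated (log2 fold change −0.44, adjusted p = 0.0235, edgeR with the block), and Creb3l2, a factor related to Creb3l1, with 74.2, 45.4 and 47.4 CPM against 115, 59.7 and 62.6 CPM (−0.49, 0.0263). Fkbp14 and Kdelr3 had log2 fold changes of −0.56 (0.0300) and −0.48 (0.0400). All 7 were lower with IFNγ in 3 of 3 numbers. Their adjusted p-values reached 0.308 to 0.646 in at least 1 other setting for all but Fkbp10, which reached 0.196. With numbers 5 and 6 only, an alternative added after the data were seen, Ddit3 (0.86, adjusted p = 0.0166), Eif2ak3 (−0.65, 0.0298) and Fkbp10 (−0.69, 0.0428) passed, beside 5.87% of all genes higher and 4.58% lower.

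**Figure D5:**
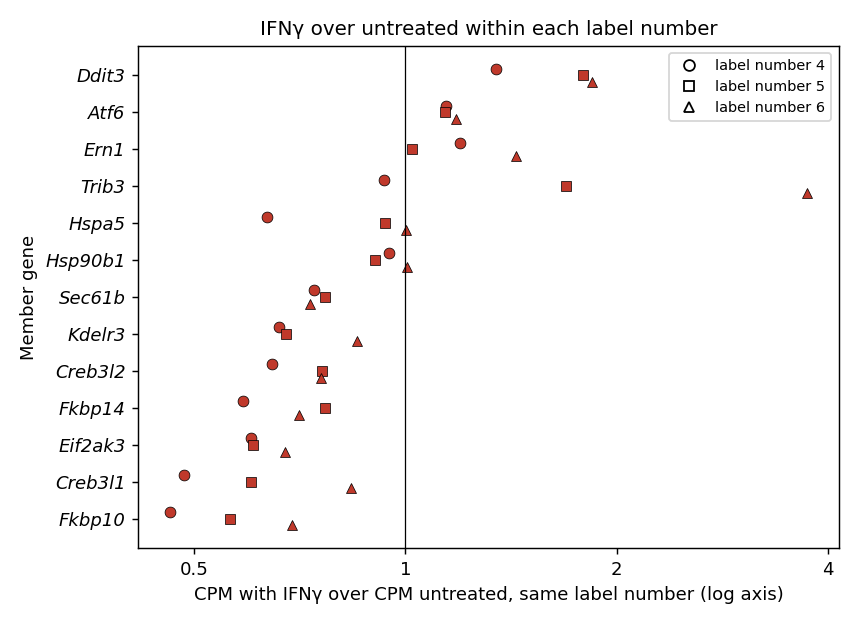
CPM with IFNγ over CPM untreated (log axis) for 13 members within each label number of the adipogenic libraries; the line marks a ratio of 1. Ddit3 lies above 1 in all 3 numbers and Fkbp10, Creb3l1 and Eif2ak3 below 1 in all 3, while Trib3 lies on both sides. Hspa5 lies below 1 in numbers 4 and 5 and at 1.00 in number 6.

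Without the block none of the 165 related genes other than cargo passed for IFNγ, and with it 4 of 164 rose and 10 fell, beside 8.61% and 8.02% of all genes. Of the cargo genes 10 of 18 fell and 0 rose with the block, and 7 fell with the block on numbers 5 and 6 only, beside 4.58% of all genes. With the block Col3a1, Fn1, Sparc and Col1a2 fell, with log2 fold changes of −2.30, −1.0, −1.10 and −0.86 (adjusted p = 0.00637, 0.0177, 0.0183 and 0.0312, edgeR), while Col1a1 had −1.55 and did not pass (0.0523). Ppp1r15a fell by 0.87 on the log2 scale with the block (0.0420).

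Without the block 1 of 18 cargo genes passed, Col12a1, a fibril-associated collagen gene, with a log2 fold change of −2.52 (adjusted p = 0.0253, edgeR). Col1a1 had 1493, 3358 and 1932 CPM in IFNγ-treated libraries and 8399, 9203 and 3087 CPM in untreated ones, with a log2 fold change of −1.61 ± 0.47 that did not pass (0.150). Col1a2 and Fn1 had log2 fold changes of −0.87 ± 0.24 and −0.97 ± 0.33 (0.136 and 0.209), and Sparc one of −1.0 ± 0.39 (0.293). Atf4 and Ppp1r15a, which act with Ddit3 in the PERK branch, had log2 fold changes of 0.01 ± 0.33 and −0.98 ± 0.39 (0.994 and 0.292).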

How the data were processed

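RNA-seq was given for 9 libraries of 3 groups, grouped by their titles. The authors deposited whole-number read counts per Ensembl gene without normalization, with exon number and exonic length as other columns. Per the submitters' processing notes, CASAVA 1.8.0 and bedtools 2.11 were used with the build mm9. The aligner, the counter and whether counts used strand were not given in the sources used here, so near-identical paralogues and antisense genes cannot be separated with certainty. Counts were fitted in R 4.3.3 with edgeR 4.0.16 (filterByExpr by group, 15098 genes, TMM, robust quasi-likelihood F test on all 9 libraries with a term per group, two-sided, Benjamini-Hochberg at 0.05 over all genes tested). The biological coefficient of variation was 0.378. SE is the log2 fold change over the square root of F, and CPM per kilobase used the deposited exonic length. limma 3.58.1 (voom), DESeq2 1.42.0, other scalings, no filter, only the libraries compared, a replicate block and leaving out each library were alternatives.

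Deviations from group means correlated at 0.787 to 0.797 for the treated and the untreated library of each adipogenic number. Different numbers gave −0.466 to −0.291. That sign largely follows from the positive same-number values, since deviations within a group cancel out. Osteogenic libraries correlated with those of their number at −0.111 to 0.0637. By the same-number values, numbers were taken to pair the adipogenic libraries only. Within groups no libraries agreed within sampling noise (chi-square per degree of freedom 62.9 to 225). An exact permutation test of 3 against 3 libraries cannot give a two-sided p below 0.1. On simulated counts for IFNγ against untreated (14881 genes), 20.6% of 97 genes changed by 1 and 67.7% of 99 changed by 2 on the log2 scale were called, and 3 of 14685 unchanged ones.

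The members and lists were chosen with earlier results of these data known. All members may be named. Others named were up to 4 related genes per comparison, taken by smallest adjusted p where the higher group averaged at least 1 CPM, and Col1a1, Col1a2, Fn1, Sparc, Atf4 and Ppp1r15a. Col3a1, Postn and Kdr were chosen after their values were seen. The list entries P3h4, Mia3 and Adgre1 were not matched and not used here. A further marker gene is not reported here. Motifs were exact letter matches in RefSeq promoters. Promoters of Derl1, Manf, Fkbp10, Creb3l1, Sec61a1, Hyou1, Atf6, Kdelr2 and Tmed2 were not analysed here.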

Additional observations from a re-analysis of the deposited data

How the results depend on the processing

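Calls among the members depended on the model most for IFNγ against untreated. There 0 members passed, but 2 were lower with DESeq2, 1 lower with a replicate block over all 9 libraries, 7 lower and 1 higher with the block over the 6 adipogenic libraries, and 2 lower and 1 higher with the block on numbers 5 and 6 only. Leaving out each library in turn gave 0 to 1 lower. For osteogenic against untreated adipogenic, 6 higher became 3 without the filter and 1 to 4 with each library left out, and 0 lower became 1 with DESeq2 (Ern1). For IFNγ-treated against osteogenic, 1 higher became 2 with DESeq2 and 0 to 1 with each library left out, and 8 lower became 14 without both adipogenic libraries numbered 4. There Hspa5 turned to −0.61 and Pdia4 to −0.63. Both were high in the libraries left out, and the cause of those high values was not tested. RLE and upper-quartile scaling and limma-voom kept each member count within 1.5 times. Over all genes, IFNγ against untreated gave 304 higher and 37 lower, 750 and 318 with DESeq2, 169 and 9 on the 6 libraries alone, 1266 and 1180 with the block over them, 877 and 685 with the block on numbers 5 and 6, 168 and 18 without number 4, 87 lower with the block over 9, 22 lower without the filter, and 185 to 260 higher and 9 to 23 lower with each library left out. Osteogenic against untreated gave 299 higher and 481 lower, 944 and 1282 with DESeq2, 197 higher on the 6 libraries alone, 527 higher with the block over 9, and 54 to 132 higher and 105 to 343 lower with each library left out. IFNγ-treated against osteogenic gave 1389 higher and 1136 lower, 1754 lower with DESeq2, and 747 to 1186 higher and 543 to 842 lower with each library left out. With 3 libraries a group, a member that did not pass may still differ.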
